A study of Mus musculus with 10 samples.

Results

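The NF-kB negative feedback genes are 10 genes whose products restrain NF-kB signalling or are induced with those that do, chosen by gene symbol: Nfkbia, Nfkbib, Nfkbie, Nfkbiz, Tnfaip3, Tnip1, Tnip2, Tnip3, Zc3h12a and Tnfaip2. All 10 were among the 29268 genes listed in the deposited table, and all 10 were among the 16993 genes with enough counts to be tested. Uterine RNA was sequenced from 5 HSD17B1TG and 5 wild-type (WT) female mice at 4 months of age. HSD17B1TG mice are a heterozygous FVB/N line that expresses the human HSD17B1 cDNA, encoding an enzyme that makes estradiol from estrone, throughout the body from a CMV-enhanced chicken beta actin promoter. The comparison asks how the uterus differs at this age, before lesions of the adenomyosis type are established. The transgene is human sequence, so the mouse Hsd17b1 count does not check the genotype labels. HSD17B1TG females do not cycle, so genotype and cycle phase cannot be told apart. Mice are called TG1 to TG5 and WT1 to WT5 below, with numbers that only name them and pair no mice.

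NF-kB is a family of transcription factors held in the cytoplasm by IkB proteins. Signals from TNF, IL-1 and Toll-like receptors activate the IKK kinase, which marks IkB for destruction, and NF-kB then enters the nucleus and switches on inflammatory genes. Among those genes are its own inhibitors: IkB alpha (Nfkbia), the ubiquitin-editing protein A20 (Tnfaip3) with its binding partners the ABINs (Tnip1 to Tnip3), and the RNase Regnase-1 (Zc3h12a), which degrades inflammatory mRNAs.

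Promoter windows reach from 250 bases before to 50 bases after the annotated start, and were taken from RefSeq for build GRCm38.p6. Windows were given for 9 of the 10 genes, 10 windows in all, since Tnfaip3 has a pair. A match to the kappaB consensus, the DNA element that NF-kB recognises, was searched on both strands, and overlapping matches were joined. Of the 9 genes, 6 had a match, against 8.46% of all 32851 windows. The 6 windows are shown because they hold the element by which feedback of this kind is known to act, with the matched bases in capitals and each sequence written 5′ to 3′ on the strand of the gene.
Nfkbia (chr12:55492598-55492897, minus strand): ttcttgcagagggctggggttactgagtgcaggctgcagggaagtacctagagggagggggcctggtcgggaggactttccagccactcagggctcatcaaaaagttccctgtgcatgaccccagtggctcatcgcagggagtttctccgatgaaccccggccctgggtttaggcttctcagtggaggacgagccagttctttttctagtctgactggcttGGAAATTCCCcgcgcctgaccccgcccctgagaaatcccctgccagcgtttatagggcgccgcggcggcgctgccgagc
Nfkbie (chr17:45555450-45555749, plus strand): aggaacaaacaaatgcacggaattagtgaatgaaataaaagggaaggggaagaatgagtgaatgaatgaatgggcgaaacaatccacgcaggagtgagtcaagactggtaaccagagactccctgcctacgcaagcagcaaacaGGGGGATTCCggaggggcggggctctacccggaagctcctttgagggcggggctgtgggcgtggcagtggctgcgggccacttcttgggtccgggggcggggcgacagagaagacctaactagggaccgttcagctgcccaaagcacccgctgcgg
Tnfaip3 (chr10:19015361-19015660, minus strand): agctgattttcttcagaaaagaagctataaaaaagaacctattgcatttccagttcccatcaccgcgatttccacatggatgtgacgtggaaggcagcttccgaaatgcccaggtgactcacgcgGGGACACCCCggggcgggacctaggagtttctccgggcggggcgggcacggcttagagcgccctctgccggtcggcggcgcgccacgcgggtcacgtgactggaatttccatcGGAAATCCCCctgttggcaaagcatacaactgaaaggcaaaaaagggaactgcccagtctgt
Tnip1 (chr11:54962891-54963190, minus strand): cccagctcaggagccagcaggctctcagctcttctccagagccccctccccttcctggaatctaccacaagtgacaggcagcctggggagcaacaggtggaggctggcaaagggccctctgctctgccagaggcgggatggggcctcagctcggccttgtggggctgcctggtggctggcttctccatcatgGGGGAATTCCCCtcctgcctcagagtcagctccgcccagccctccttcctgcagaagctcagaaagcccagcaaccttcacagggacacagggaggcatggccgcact
Tnip3 (chr6:65590148-65590447, plus strand): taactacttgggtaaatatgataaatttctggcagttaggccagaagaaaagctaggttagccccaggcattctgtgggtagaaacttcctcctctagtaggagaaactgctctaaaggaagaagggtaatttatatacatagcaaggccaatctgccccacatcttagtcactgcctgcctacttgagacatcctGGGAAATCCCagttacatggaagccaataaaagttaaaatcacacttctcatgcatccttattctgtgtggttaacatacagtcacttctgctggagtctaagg
Tnfaip2 (chr12:111442411-111442710, plus strand): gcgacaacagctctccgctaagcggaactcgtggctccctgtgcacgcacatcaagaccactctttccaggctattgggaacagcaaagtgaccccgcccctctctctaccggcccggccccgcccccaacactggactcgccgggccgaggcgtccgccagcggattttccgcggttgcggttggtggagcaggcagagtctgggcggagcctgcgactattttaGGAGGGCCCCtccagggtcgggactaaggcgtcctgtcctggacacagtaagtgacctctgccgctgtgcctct
All matches lay upstream of the RefSeq start, from which distances are counted. That start is not the outermost start of the Ensembl gene in every case: it lies 192 bases inside the gene for Tnfaip2, 247 bases inside for the Tnfaip3 window shown and 65085 bases inside for Tnip3, so that the matches of these 3 genes fall within the Ensembl gene. In Nfkbia the match began 29 bases upstream, in Tnfaip2 24 bases upstream and in Tnip3 54 bases upstream. Tnfaip3 held 2 matches in the window shown, beginning 125 and 12 bases upstream, as did 0.521% of all windows. Nfkbib, Tnip2 and Zc3h12a had no match, which says only that these letters were not in the window. The consensus estrogen response element had no match in any of the 10 windows and was present in 0.07% of all windows.

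**Figure D1:**
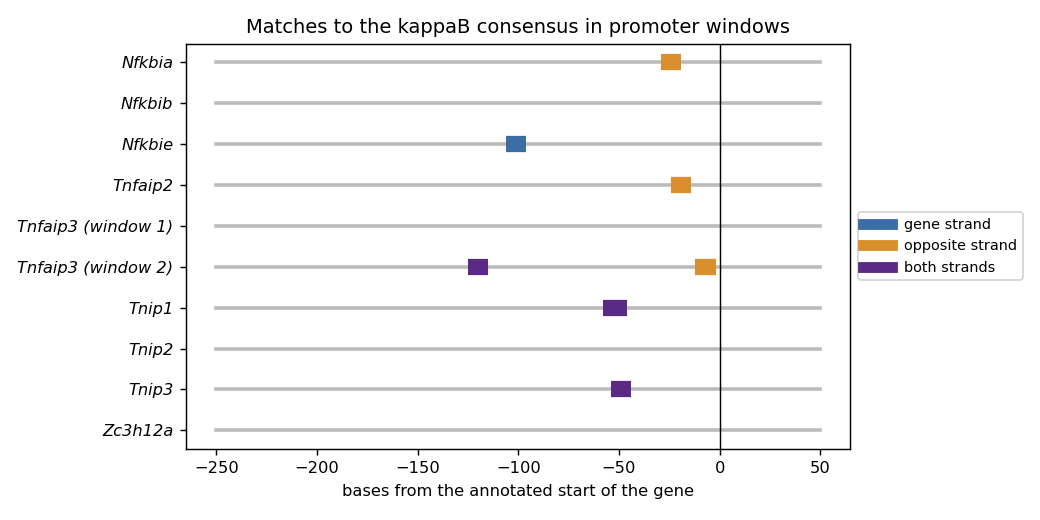
Each grey line is a promoter window and each block a match to the kappaB consensus, placed by its distance in bases from the RefSeq start at 0, with colour giving the strand. Matches are seen in 6 of the 10 windows, all upstream of the RefSeq start.

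The libraries held 14817228 to 23271988 counts assigned to genes. Gene counts were tested with edgeR, and levels are given as FPKM (fragments scaled to gene length and library size), which allows genes of different length to be compared. The 10 most abundant genes took 6.97% to 12.5% of counts in HSD17B1TG mice and 5.18% to 6.15% in WT mice, with TG5 highest at 12.5%. Mitochondrial transcripts took 5.74%, 1.94%, 2.49%, 6.87% and 7.57% of counts in TG1 to TG5 and 2.58% to 3.37% in WT mice, so that TG1, TG4 and TG5 lay above every WT mouse and TG2 and TG3 below every WT mouse.

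Of the 10 genes, 4 were called higher in the HSD17B1TG uterus (Tnip3, Zc3h12a, Tnfaip2 and Nfkbiz) and 0 lower. A gene was called where its Benjamini-Hochberg adjusted p was under 0.05, its level differed by more than 2 times and at least 1 group averaged above 1 FPKM. Over all genes tested, 2.16% were called higher and 2.08% lower. Tnip2 passed the adjusted p as well, at a fold change under 2, so that 5 of 10 passed in the higher direction and 0 in the lower, against 3.34% and 2.81% of all genes. The median log2 fold change was 1.20 over the 10 genes and 0.00 over all genes. With DESeq2, the tool of the study's methods, 6 of the 10 were called higher, adding Nfkbia and Tnfaip3, against 4.48% of genes tested. The edgeR calls changed with single mice: leaving out TG4, TG5, WT1, WT2, WT3 or WT5 left 1 gene called, Tnip3, and leaving out TG2 left 2. Over all genes the share called higher fell too in these 7 fits, to between 0.219% and 0.579%. The log2 fold changes with any 1 mouse left out were 1.21 to 1.58 for Tnfaip2, 1.07 to 1.56 for Nfkbiz and 1.63 to 2.21 for Zc3h12a. DESeq2 was not run with mice left out. In a bulk tissue, more cells of a type and more RNA per cell cannot be told apart.

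**Figure D2:**
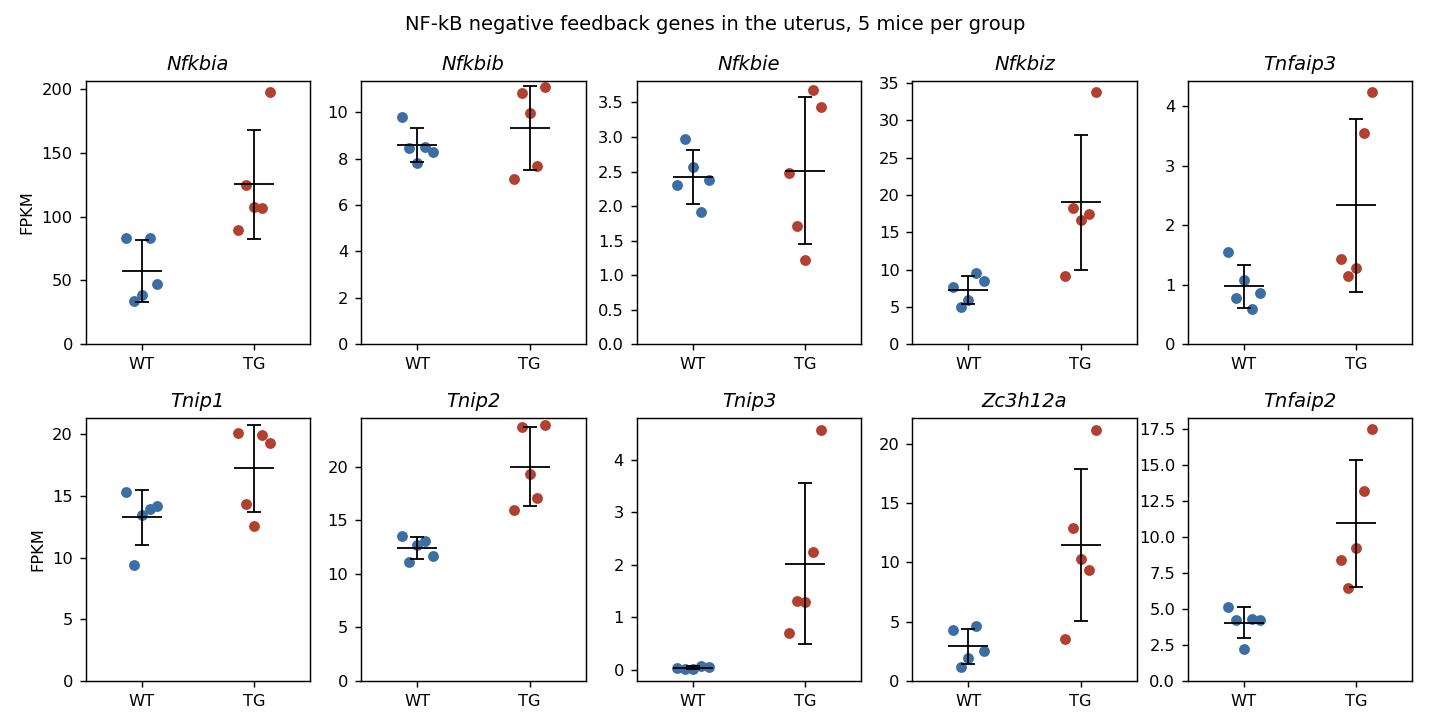
FPKM of each gene (y axis, each panel with its own scale) in the 5 WT and 5 HSD17B1TG (TG) uteri. Points are mice and bars are the mean ± SD. In 4 of the genes, Tnip3, Tnfaip2, Tnip2 and Nfkbia, every TG point lies above every WT point.

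Nfkbia (ENSMUSG00000021025, chromosome 12:55489410-55492647 in GRCm38, minus strand) encodes IkB alpha, the inhibitor that is resynthesised after each activation. Its FPKM was 89.3, 125, 107, 107 and 198 in TG1 to TG5 and 83.1, 34.2, 38.2, 83.3 and 46.9 in WT1 to WT5. All HSD17B1TG mice were above all WT mice, although TG1 was close to WT1 and WT4. The log2 fold change was 1.13 ± 0.31 (SE), and the edgeR adjusted p of 0.0529 missed the threshold, while the DESeq2 adjusted p was 0.0102. In an exact two-sided permutation test on log2(FPKM + 1), p was 0.00794, the smallest that 5 against 5 mice allow. This was the most abundant of the 10 genes, making up 56.9% of their summed mean FPKM in HSD17B1TG and 52.4% in WT.

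The other cytoplasmic IkB genes did not pass. Nfkbib (chromosome 7:28758251-28767512, minus strand), which encodes IkB beta, had 7.12 to 11.1 FPKM in HSD17B1TG mice and 7.83 to 9.79 in WT mice, with a log2 fold change of 0.12 ± 0.17 (SE) and an edgeR adjusted p of 0.699. Nfkbie (chromosome 17:45555703-45563169, plus strand), which encodes IkB epsilon, had 1.22 to 3.69 FPKM against 1.91 to 2.97, a log2 fold change of 0.05 ± 0.31 (SE) and an edgeR adjusted p of 0.944. The groups overlapped in both genes, and the sign of Nfkbie turned negative under some settings. Nfkbib shares 42 exon bases with Sirt2 on the opposite strand, and whether reads were counted by strand is not given in the sources used here.

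Nfkbiz (ENSMUSG00000035356, chromosome 16:55811375-55838899, minus strand) encodes IkB zeta, a nuclear protein that is needed for a further set of inflammatory genes and is itself induced by NF-kB. Its FPKM was 9.11, 18.2, 16.6, 17.4 and 33.8 in TG1 to TG5 and 7.62, 4.95, 5.92, 9.54 and 8.44 in WT1 to WT5. The groups overlapped only through TG1, which lay between WT5 and WT4. HSD17B1TG mice were higher by 1.38 ± 0.31 (SE) on the log2 scale, a fold of 2.61, with an edgeR adjusted p of 0.0348 and an exact permutation p of 0.0159. The edgeR adjusted p stayed under 0.05 in 3 of 10 fits with a mouse left out.

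Tnfaip3 (ENSMUSG00000019850, chromosome 10:19000910-19015657, minus strand) encodes A20, which edits ubiquitin chains on signalling proteins. Its FPKM was 1.43, 1.15, 1.29, 3.55 and 4.24 in TG1 to TG5 and 1.54, 0.779, 1.08, 0.596 and 0.865 in WT1 to WT5. Only TG4 and TG5 lay above every WT mouse. The log2 fold change was 1.26 ± 0.43 (SE) with an edgeR adjusted p of 0.0972, against 0.0336 by DESeq2, and the exact permutation p was 0.0476.

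Among the A20-binding proteins, Tnip3 (ENSMUSG00000044162, chromosome 6:65525313-65634040, plus strand), encoding ABIN-3, had the largest edgeR fold change of the 10 genes. Its FPKM was 0.688, 1.31, 1.29, 2.24 and 4.57 in TG1 to TG5 and 0.0224, 0.0193, 0.0170, 0.0754 and 0.0537 in WT1 to WT5. These rest on 140 to 777 counts in HSD17B1TG mice and 3 to 17 counts in WT mice, so the WT level is near the limit of detection and the gene passed the filter on low counts through the HSD17B1TG group. The groups did not overlap. On the log2 scale the fold change was 5.72 ± 0.66 (SE), a fold of 52.6, with an edgeR adjusted p of 0.00956 and an exact permutation p of 0.00794. Tnip3 was called in 10 of 10 fits with a mouse left out. On the log2(FPKM + 1) scale, which compresses low values, the difference was 1.41, below the 1.59 of Zc3h12a.

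Tnip2 (ENSMUSG00000059866, chromosome 5:34496087-34513991, minus strand), encoding ABIN-2, had 15.9, 23.7, 19.3, 17.1 and 23.9 FPKM in TG1 to TG5 and 13.6, 11.1, 12.7, 13.1 and 11.6 in WT1 to WT5. All HSD17B1TG mice were above all WT mice. The log2 fold change was 0.68 ± 0.14 (SE), a fold of 1.61, with an edgeR adjusted p of 0.0287 and an exact permutation p of 0.00794. With a mouse left out, Tnip2 kept an edgeR adjusted p under 0.05 in 3 of 10 fits. Tnip1 (chromosome 11:54910785-54962917, minus strand), encoding ABIN-1, had 12.6 to 20.1 FPKM against 9.43 to 15.3. Its groups overlapped, and the log2 fold change of 0.37 ± 0.18 (SE) did not pass (edgeR adjusted p = 0.209).

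Zc3h12a (ENSMUSG00000042677, chromosome 4:125118423-125127840, minus strand) encodes Regnase-1. Its FPKM was 3.54, 12.9, 10.3, 9.38 and 21.2 in TG1 to TG5 and 4.32, 1.13, 1.91, 4.62 and 2.54 in WT1 to WT5. TG1 lay below WT1 and WT4, and the other 4 HSD17B1TG mice lay above every WT mouse. HSD17B1TG mice were higher by 1.98 ± 0.49 (SE) on the log2 scale, a fold of 3.94, with an edgeR adjusted p of 0.0429 and an exact permutation p of 0.0238.

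Tnfaip2 (ENSMUSG00000021281, chromosome 12:111442469-111455018, plus strand) encodes a TNF-induced protein known for its part in membrane protrusions. Its FPKM was 8.40, 6.45, 9.27, 13.2 and 17.5 in TG1 to TG5 and 5.12, 4.20, 2.23, 4.33 and 4.24 in WT1 to WT5, without overlap. The log2 fold change was 1.44 ± 0.29 (SE), a fold of 2.72, with an edgeR adjusted p of 0.0270 and an exact permutation p of 0.00794. The gene shares 314 exon bases with the antisense gene Gm40578, which had a mean of 3.3 counts.

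In all, the groups did not overlap in 4 of the 10 genes, always with HSD17B1TG higher, against 4.04% of genes tested with HSD17B1TG higher and 2.65% with HSD17B1TG lower.

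**Figure D3:**
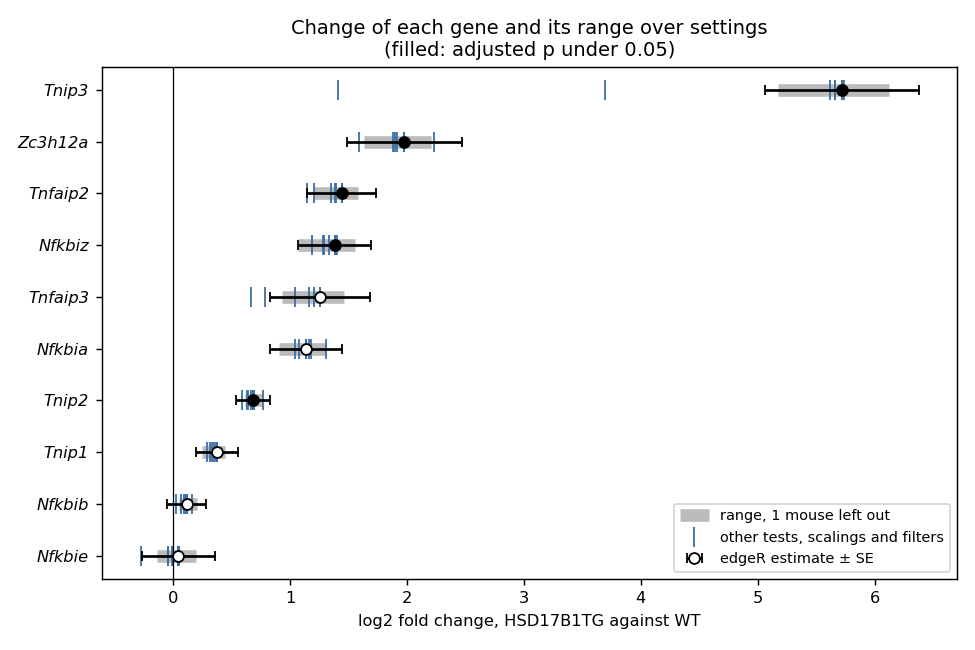
Log2 fold change of each gene, HSD17B1TG against WT (x axis), with edgeR estimates ± SE as circles, filled where the adjusted p was under 0.05. Grey bars give the range with 1 mouse left out and blue ticks the other tests, scalings and filters. Tnip3 stands at 5.72, and its lowest tick of 1.41 is the log2(FPKM + 1) scale.

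In both groups Nfkbia had the highest FPKM and did not overlap with the next gene. In HSD17B1TG mice Tnip2, Nfkbiz and Tnip1 followed, with overlapping ranges, and Nfkbiz and Tnip1 had mean FPKM of 19.0 and 17.2. In WT mice the order below Nfkbia was Tnip1, Tnip2, Nfkbib and Nfkbiz, with means of 13.3, 12.4, 8.58 and 7.29. Tnip3 was the lowest in both groups, at 2.02 ± 1.53 (SD, n = 5) in HSD17B1TG and 0.0376 ± 0.0259 (SD, n = 5) in WT. Its range overlapped with that of Tnfaip3 in HSD17B1TG mice but not in WT mice.

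The HSD17B1TG mice differed among themselves. TG5 had the highest level within its group in 8 of the 10 genes and TG1 the lowest in 6, by FPKM and by CPM (counts scaled to library size only) alike. Among WT mice, WT1 was highest in 5 genes and WT2 lowest in 5. After each group's mean was removed, the correlation of log2 CPM over the 10 mice was above 0 in 39 of the 45 pairs of these genes, with a median r of 0.43. These points share libraries, and the share of positive pairs among other genes was not worked out, so the values are descriptive.

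**Figure D4:**
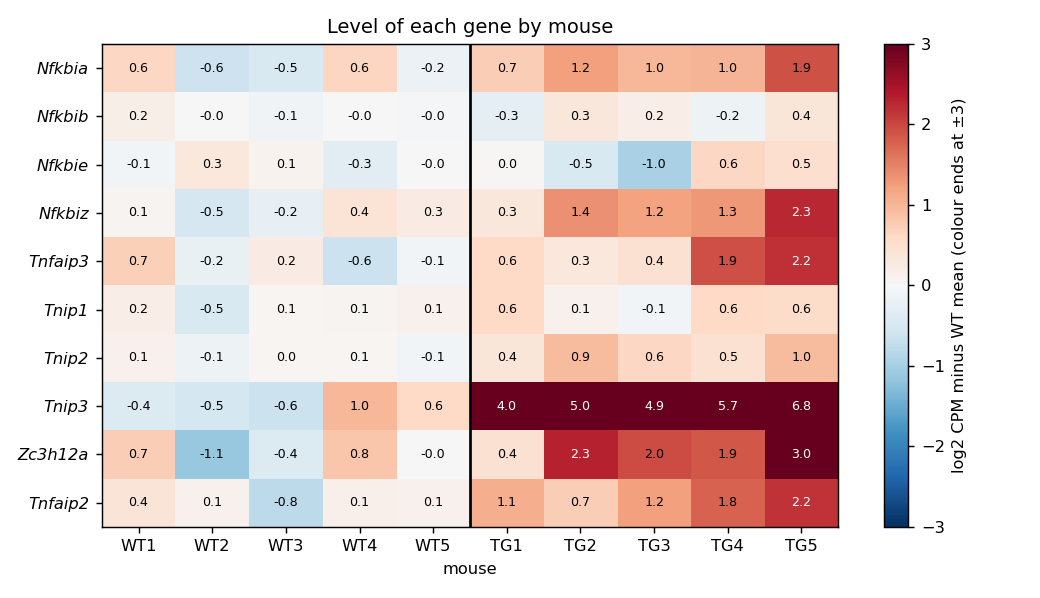
Log2 CPM of each gene minus its mean over the WT mice (colour), for the 5 WT and 5 HSD17B1TG mice in columns. Tnip3 is high in every TG mouse, while TG5 is the highest TG mouse in 8 of the 10 genes and TG1 the lowest in 6.

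The protein-coding genes with the most similar pattern over the mice, by the same group-centred correlation, included Tlr2 for Nfkbia (r = 0.97), Slc35f6 for Tnip3 (r = 0.98) and Bsg for Nfkbiz (r = 0.98). Ngef was nearest to Zc3h12a (r = 0.97), Arhgap26 to Tnip2 (r = 0.98) and Nupr1 to Tnfaip2 (r = 0.94). Mgat1 was nearest to Tnfaip3 (r = 0.92), Pnrc1 to Tnip1 (r = 0.95), Slc12a2 to Nfkbib (r = 0.97) and Smim27 to Nfkbie (r = 0.95). Tlr2, a receptor that activates NF-kB, is also in the list of upstream genes below.

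Other genes of the pathway were taken from 8 lists, of which 103 genes were tested. Of these, 7 passed the adjusted p with HSD17B1TG higher and 1 with HSD17B1TG lower, against 3.34% and 2.81% of all genes, and the median log2 fold change was 0.22. DESeq2, which tested 111 of the listed genes, gave 23 higher (21 of them among the 103) and limma voom gave 24 of the 103, where 7.84% and 11.6% of all genes passed in that direction. With 1 mouse left out the count of 7 became 20 without TG1, 17 without WT4, 3 without TG4, 2 without WT1 and 1 without TG2, TG5, WT2, WT3 or WT5. The share of all genes that passed as higher was 7.23% without TG1, 7.70% without WT4 and 0.262% to 0.759% in the fits where the count fell. By edgeR none of the 13 NF-kB and IKK subunits passed, with Map3k14 (log2 fold change 0.89, edgeR adjusted p = 0.0742) and Rela (0.42, edgeR adjusted p = 0.183) nearest. By edgeR none of the 16 ubiquitin machinery genes passed either, where Birc3 had the smallest p (0.79, edgeR adjusted p = 0.0811). The 2 other nuclear IkB genes, Bcl3 and Nfkbid, and the 11 mRNA decay genes did not pass either. Malt1, the protease that cleaves Regnase-1, came nearest at 0.51, with an edgeR adjusted p just above 0.05. Map3k14, Birc3 and Malt1 passed as higher by both DESeq2 and limma voom. Cyld, Itch, Rnf31, Sharpin and N4bp1 passed as higher by limma voom only of the 3 tools, and Zc3h12c passed as lower by DESeq2 only.

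Of 23 upstream ligands and receptors tested, 3 passed by edgeR, all higher in HSD17B1TG, and 7 by DESeq2. Il1a, which encodes the cytokine IL-1 alpha, had 2.69 to 14.3 FPKM in HSD17B1TG mice and 0.157 to 0.480 in WT mice, a log2 fold change of 4.93 ± 0.51 (SE, edgeR adjusted p = 0.00956). It had 5 to 18 counts in WT mice, with 2 of 5 at 10 counts or more, and so entered the test through the HSD17B1TG group. Tnfrsf1b, a TNF receptor, changed by 1.40 (edgeR adjusted p = 0.0234) and Tlr2 by 1.61 (edgeR adjusted p = 0.0306).

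Of 10 listed genes known to need IkB zeta, Il6, Ccl20, S100a8, Il17c and Csf2 had too few counts to be tested by edgeR. Among the other 5, the neutrophil growth factor Csf3 was higher in HSD17B1TG by 2.69 and the chemokine Cxcl5 by 3.19 on the log2 scale (edgeR adjusted p = 0.0345 and 0.0494). The groups overlapped for Cxcl5, at 0.605 to 14.9 FPKM in HSD17B1TG mice and 0.254 to 0.650 in WT mice, where it had 9 to 25 counts. Il1f9, the cytokine IL-36 gamma, passed as well (edgeR adjusted p = 0.0321), but had 0 to 10 counts in WT mice against 14 to 166 and entered the test through the HSD17B1TG group. DESeq2, which tested 9 of the list, passed Csf2 and S100a9 besides these 3, and limma voom passed Csf3, Il1f9 and Lcn2 but not Cxcl5. Csf3 and Cxcl5 were also the 2 that passed by edgeR among 25 other NF-kB-induced genes, where DESeq2 passed 10 of 31 and limma voom 7 of 25, all higher. Of the other inhibitors of the pathway, edgeR passed Nlrx1 as higher (1.02, edgeR adjusted p = 0.0234) and the decoy receptor Il1r2 as lower (-2.49, edgeR adjusted p = 0.0445) among 13 tested, and DESeq2 and limma voom passed Sigirr as higher besides. Il1r2 had 3 to 14 counts in HSD17B1TG mice against 15 to 91 in WT mice, and so entered the test through the WT group.

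**Figure D5:**
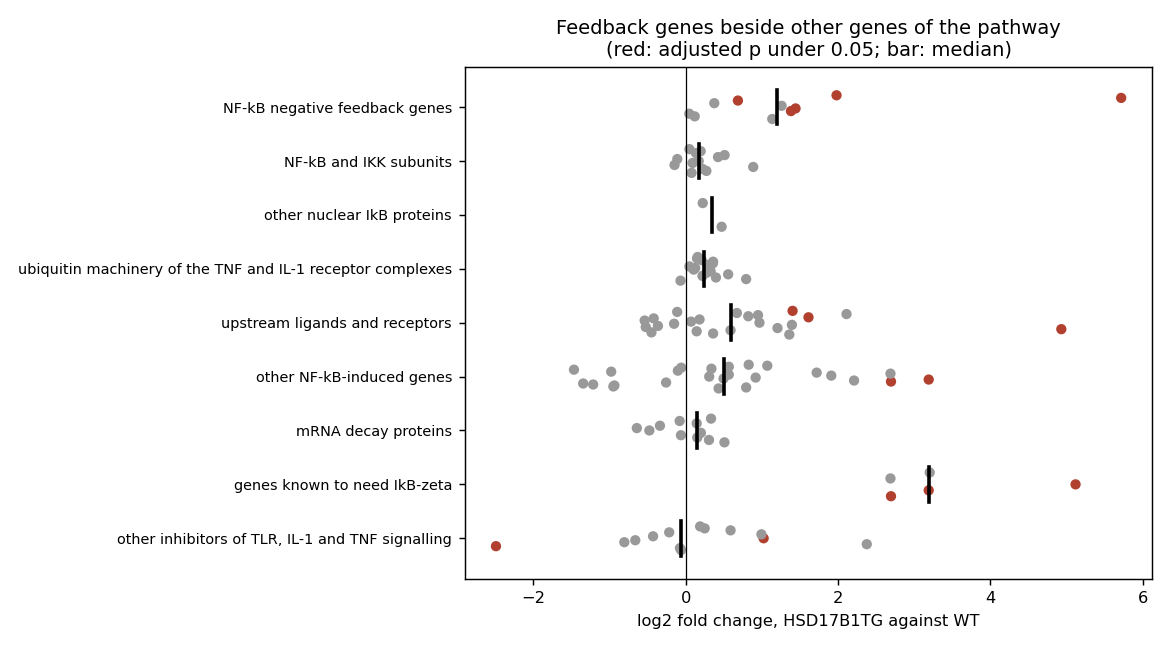
Log2 fold change, HSD17B1TG against WT (x axis), of each tested gene of the feedback genes and of 8 lists of other pathway genes, with red points at adjusted p under 0.05 and black bars at the median. The feedback genes have a median of 1.20 and the NF-kB and IKK subunits one of 0.17.

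Markers of cell types were read beside these results. None of the 9 epithelial markers passed, although each had a fold change above 0 (median 1.24 on the log2 scale), and their summed FPKM ranged from 648.9 to 3072 against 456.7 to 1549 in WT. Stromal markers summed to 322.9 to 1285 against 496.8 to 894.3, and of 6 tested Hand2 and Pdgfra passed as lower, while the other 4 did not pass and the list's median was -0.84. Of the 4, Lum had a fold change above 0. Also, 2 of 6 uterine identity genes, Hoxa10 and Hoxa11, passed as lower. Of 8 macrophage markers only Cd68 passed, as higher, with 6 of the list above 0, 2 below 0 and a median of 0.17. All 6 NK and T cell markers tested had a fold change below 0 (median -3.0), and 4 of them passed as lower. Of 8 listed neutrophil markers 5 had too few counts to be tested, and none of the other 3 passed, each with a fold change above 0 (S100a9 3.20, Ly6g 2.12 and Csf3r 0.53 on the log2 scale). The summed FPKM of the 8 was 7.27 to 12.8 in HSD17B1TG mice and 0.601 to 4.38 in WT mice. Of the 3 tested, Ly6g had the highest mean FPKM, 5.59 against 1.27 in WT, with an edgeR adjusted p of 0.236. Retnlg and Camp had at most 3 counts in every mouse. None of 5 endothelial markers passed, each with a fold change below 0 (median -1.26 on the log2 scale), and none of 6 smooth muscle markers passed, each with one above 0 (median 0.56). Of 6 general leucocyte markers Laptm5 passed as higher (1.29), while the other 5 had fold changes below 0 that did not pass, with a median of -0.68 over the list, and no B cell marker had enough counts to be tested. The oviduct marker Ovgp1 did not pass. The part of these markers in the levels of the feedback genes was not tested.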

How the data were processed

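Uterine RNA was sequenced from 10 mice. The authors mapped reads with HISAT2 2.0.5 to an Ensembl mouse genome (GRCm38) and deposited gene counts and FPKM in 1 table. Which program counted the reads, and whether by strand, is not given in the sources used here. The deposited FPKM values imply 0.854 to 1.16 times each mouse's total count as the library size, so they were scaled between mice. The authors' fold changes, p-values and enrichment files were not used.

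Counts were tested with edgeR 4.0.16 (filterByExpr, TMM, quasi-likelihood test, R 4.3.3) over 16993 genes with genotype as the only term and Benjamini-Hochberg adjustment. The test was checked on simulated counts. DESeq2 1.42.0, limma 3.58.1 and other scalings, filters and left-out mice were alternatives. Each SE was worked back from the log2 fold change and the edgeR test statistic, so it adds no information beyond them. Exact permutation tests used log2(FPKM + 1). The edgeR p-values set the difference between genotypes against the spread between mice. The permutation p is the share of the 252 assignments of mice to groups with a difference at least as large. A floor of 3 counts equals 0.129 to 0.202 CPM.

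Named genes were all 10 feedback genes, up to 3 genes of smallest p from each list, and the nearest genes by correlation. Marker genes, genes too low to test and genes passed only by another tool are named as well, chosen after their values were seen. Members and lists were chosen with earlier results of these data known. Il36g was matched as Il1f9; Defb4 and Mmp8 were not analysed here.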

Additional observations from a re-analysis of the deposited data

Results flagged for a closer look

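Among the 20 groups of 5 values tested (10 genes in 2 genotypes, as log2 CPM), 2 had a mouse far from the others, where chance gives about 1 in 20 groups. Tnip1 was low in WT2, with a gap to the next mouse of 0.767 of the range of the group. Tnfaip2 was low in WT3, with a gap of 0.778 of the range.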

How the results depend on the processing

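The calls of the feedback genes depended on single mice. With 1 mouse left out, the genes called higher numbered 1 to 5 and those past the adjusted p 1 to 6, the upper ends being reached without TG1 and without WT4. Over all genes the share called higher ranged from 0.219% to 5.12% in the same fits. The log2 fold changes of Tnfaip2, Nfkbiz and Zc3h12a stayed between 1.07 and 2.21. None was called lower under any alternative run. Tnip3 was called in all 10 of these edgeR fits, and in all 9 fits with another test, scaling or filter it passed the adjusted p, but it entered the filtered fits through the HSD17B1TG group, so these calls do not rank it as more stable than the other genes. Nfkbia passed in 4 of those 9 (DESeq2, limma voom and limma on both FPKM scales) and Tnfaip3 in 1 (DESeq2). Why the tests differ was not tested.

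Of the other pathway genes, those past the adjusted p and higher numbered 23 with DESeq2, 24 with limma voom and 1 to 20 with 1 mouse left out (7.84%, 11.6% and 0.262% to 7.70% of all genes), and those lower numbered 2 with DESeq2, 0 with no filter, 0 with limma on log2(FPKM + 1) and 0 to 1 with 1 mouse left out. The cause was not tested.

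Nfkbie turned negative with limma voom (-0.28), the upper quartile scaling (-0.0423), limma on log2(FPKM + 1) (-0.0133) and limma on log2(FPKM + 0.1) (-0.0459). It ranged from -0.13 to 0.20 with 1 mouse left out, with exact permutation p of 0.460 to 0.984. No paired analysis was possible because the labels give the groups animal numbers that pair no mice. Group size, genotype confounded with cycle phase and mixed tissue limit these values, and at 3 to 17 counts the WT level of Tnip3 is imprecise.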
